A study of Mus musculus with 8 samples.

Results

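The 8 genes described here, Cd36, Lpl, Gpihbp1, Angptl4, Lmf1, Vldlr, Fabp3 and Slc27a1, serve the uptake of lipid from the blood into brown adipocytes, as lipid carriers or by acting on the lipase that frees the fatty acids. Their loci were chosen by name, and a peak summit was counted for a gene when it lay inside the gene or no more than 50 kb from a transcription start site (TSS) of one of its curated RefSeq mRNAs in the mm10 mouse genome. By this rule 86 of the 32173 summits in the deposited list (0.267%) belonged to 8 of 21000 genes. The summits came from ATAC-seq, in which the Tn5 transposase cuts and tags open DNA, on nuclei of brown adipose tissue (BAT). There were 2 WT and 2 Dot1L-BKO mice, all 12 weeks old, on chow and held at 4°C for 4 hr. WT mice were littermates with floxed Dot1l alleles. In Dot1L-BKO mice, Cre driven by the Ucp1 promoter removed Dot1l, the H3K79 methyltransferase, from Ucp1+ cells, and other cells of the tissue kept the gene. The 4 libraries were described by a single list with 1 score per peak, the −log10 of the q-value given by MACS2, and which libraries served as treatment and which as control is not known here. No value per library exists in it, so that no replicate error can be given, no test was made, and WT and Dot1L-BKO mice were not compared at these genes. Read depth is unknown, and a score ranks peaks within the list and is not a measure of how open a site was in either genotype.

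Brown fat burns fatty acids and takes many of them from triglyceride-rich lipoproteins in the blood. Lipoprotein lipase (Lpl) is made in adipocytes, matured in the endoplasmic reticulum with the help of Lmf1, carried across the capillary wall by the endothelial protein Gpihbp1, and inhibited by the secreted protein Angptl4. The freed fatty acids enter cells through Cd36 and the transport protein Slc27a1 (FATP1) and are bound inside by Fabp3, while Vldlr binds lipoprotein particles at the cell surface. These roles are background and were not measured here.

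Markers of the cell types of the tissue were checked for promoter summits, meaning summits within 1 kb of a TSS, which 45.2% of all genes had. All 10 brown adipocyte markers had one (median of the highest score per gene 13.9), led by Cidea at 61.5. Of 12 endothelial markers 4 did, namely Egfl7 (14.7), Esam (9.78), Sox17 (5.55) and Cdh5 (2.59), and Pecam1, Kdr, Tek, Tie1, Emcn, Erg, Vwf and Sox18 did not. A promoter summit was also found at 2 of 9 macrophage and leukocyte markers, 3 of 8 progenitor and mural markers and 0 of 9 skeletal muscle markers. With so few genes, 4 of 12 and 3 of 8 are near the share of all genes, and no cell type is called present or absent from them. The brown adipocyte list was chosen with earlier results of these data known. It held Ucp1 and Cox8b, whose ATAC-seq peaks the paper showed, and Adipoq and Pparg, which the paper used as markers of adipogenesis. Nuclei of all cell types of the tissue entered the libraries, and fewer nuclei of a type cannot be told apart from less open DNA in them. Had the libraries of 1 genotype served as the control for MACS2, a site open alike in both genotypes could also score low or be missing from the list, which cannot be told apart here.

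All 8 lipid uptake genes had at least 1 promoter summit, whereas 45.2% of all genes did. Lpl had the highest score at 23.1, followed by Lmf1 at 19.4, Fabp3 at 18.8, Angptl4 at 13.4, Vldlr at 10.9, Slc27a1 at 10.2, Cd36 at 4.16 and Gpihbp1 at 3.79. Without values per library it is not known which neighbours in this order differ. A score of at least 10 was reached by 6 of the 8 genes, by 23.5% of all genes and by 52.1% of genes with a promoter summit. The 2 below it, Cd36 and Gpihbp1, were also below 5. The median of the 8 was 12.2, near the 10.7 of all genes with a promoter summit (quartiles 5.55 and 20.9). The genes spread over most of this range, with 77.6% of those genes scoring lower than Lpl, which was above the upper quartile, and 11.9% lower than Gpihbp1, which was below the lower one. In 5 of the 8 genes, Gpihbp1, Angptl4, Lmf1, Vldlr and Fabp3, at least 2 summits lay within 1 kb of a TSS, compared with 8.08% of all genes and 17.9% of genes with a promoter summit.

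**Figure D1:**
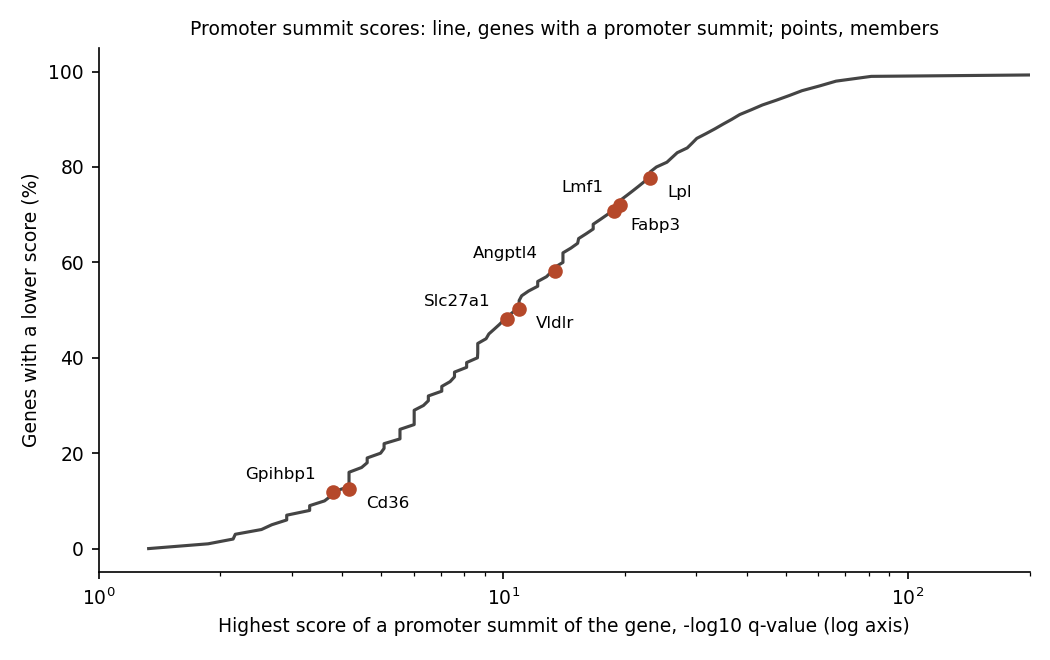
The line gives the highest promoter summit score of each gene that had one (x axis, −log10 q-value, log axis) against the share of such genes with a lower score (y axis, %). The points are the 8 lipid uptake genes, of which Gpihbp1 (3.79) and Cd36 (4.16) stand low and Lpl (23.1) highest.

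The number of summits around the genes ran higher than around most genes. Each of the 8 loci held between 4 and 23 summits with a median of 8.5, where all genes had a median of 2 (quartiles 0 and 5) and 72.6% of them had at least 1. Genes with a promoter summit, which are the closer comparison here, had a median of 4 and an upper quartile of 8. Lpl led with 23 summits, more than 97.8% of all genes, followed by Angptl4 and Slc27a1 with 16 each, Gpihbp1 with 11, Cd36 and Fabp3 with 6 each, and Lmf1 and Vldlr with 4 each. This order depended on the window. With 10 kb in place of 50 kb Gpihbp1 led with 7, and Lpl and Angptl4 had 6 each, while with 100 kb Slc27a1 and Lpl had 28 each. The windows also held other genes, and for 35 of the 86 summits the nearest TSS was that of another gene. By the 51 summits that were nearest to a TSS of the 8 genes, the order became Lpl with 19, Gpihbp1 with 7, Angptl4 and Fabp3 with 6, Cd36 with 5, Vldlr with 4, and Lmf1 and Slc27a1 with 2. Slc27a1 dropped most, because 14 of its 16 summits lay nearer to other genes.

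**Figure D2:**
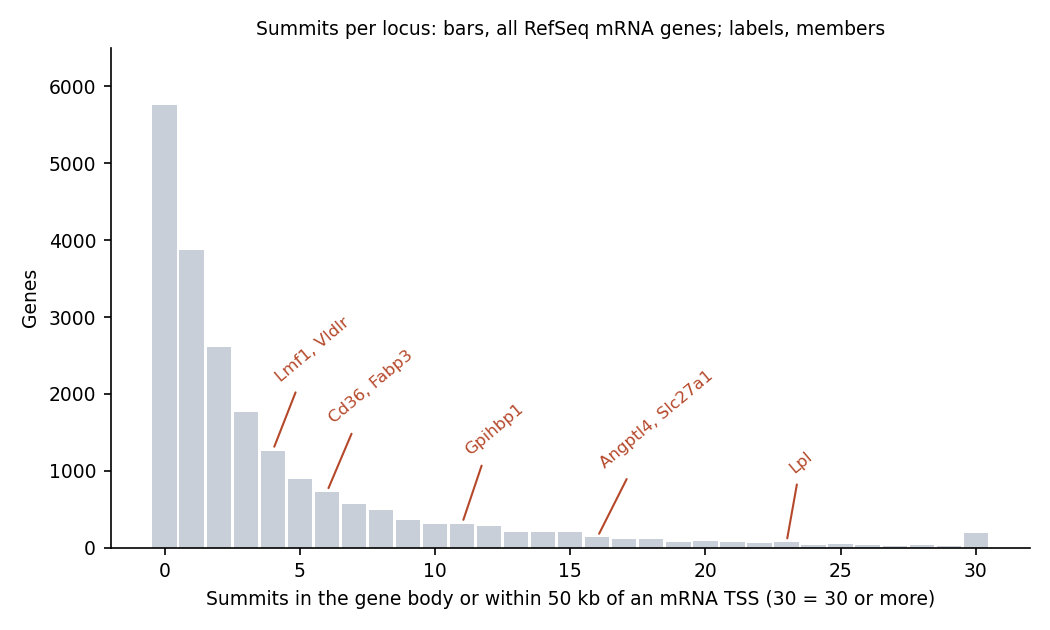
The bars count all genes (y axis) by the number of summits inside the gene or at most 50 kb from a TSS (x axis, with 30 or more in the last bar). The names mark the lipid uptake genes, from 4 summits at Lmf1 and Vldlr to 23 at Lpl.

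**Figure D3:**
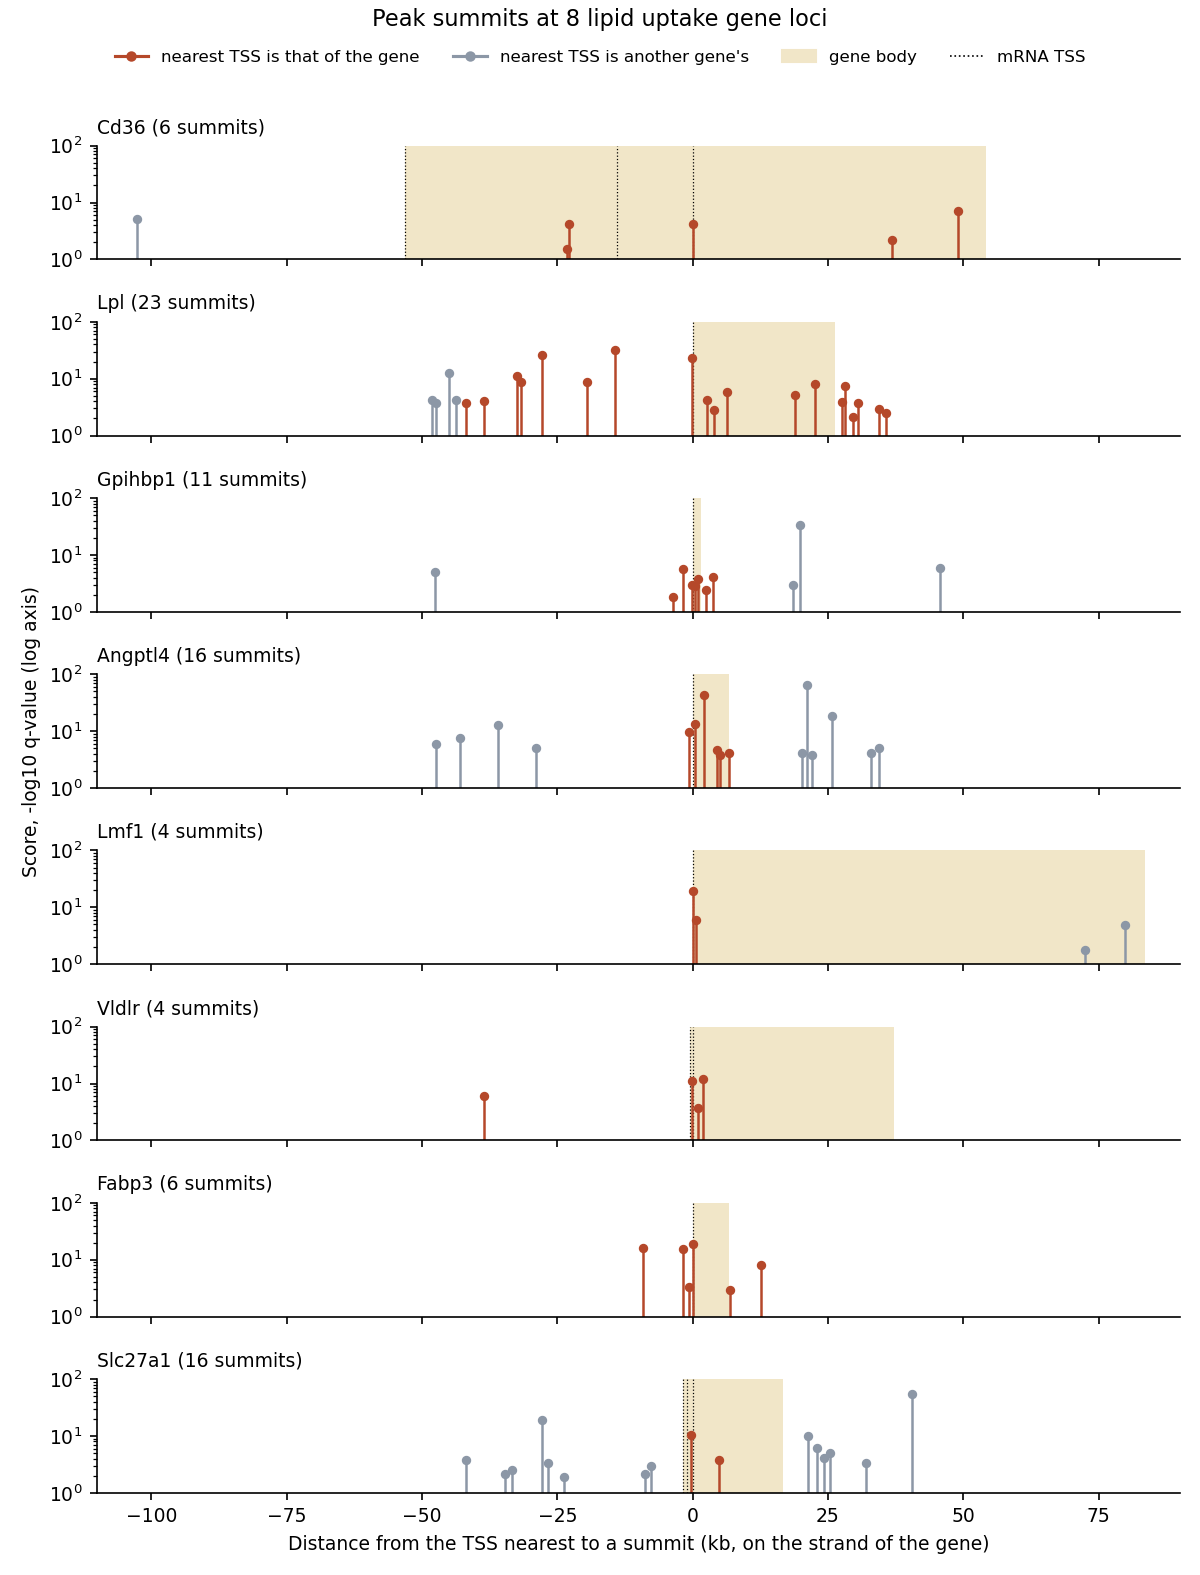
Each row is 1 gene, with distance from the TSS nearest to a summit on the x axis (kb, on the strand of the gene) and the score of each summit on the y axis (−log10 q-value, log axis). Red summits were nearest to the gene's own TSS, grey ones to another gene's, shading is the gene body and dotted lines are mRNA TSSs. The high summits of Lpl stand at and upstream of its TSS, and most summits around Slc27a1 are grey.

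Lpl (gene ID 16956, chr8:68880555-68906932, plus strand), the lipase itself, had 1 promoter summit, 66 bp upstream of its single TSS. Its score of 23.1 was the highest promoter score of the 8 genes, but it was not the highest at the locus. Summits 14260 bp upstream (32.5) and 27771 bp upstream (26.1) scored higher. The fourth summit of at least 10 that was nearest to Lpl lay 32373 bp upstream (10.9). All 4 of these lay at or upstream of the TSS. The 11 summits on the downstream side scored between 2.15 and 8.12, with 5 of them inside the gene (3 in intron 1, 1 in intron 6 and 1 in intron 9) and the others past its end. The remaining upstream summits had scores of 8.65 at 31658 bp and at 19566 bp, 4.04 at 38464 bp and 3.75 at 41877 bp. A further 4 summits between 43622 and 48095 bp upstream (3.75 to 12.8) were nearer to Ints10, a subunit gene of the Integrator complex.

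The 3 sites of Lpl beyond 1 kb with a score of at least 10 are shown here, read 5′ to 3′ on the strand of the gene from the RefSeq GRCm38 genome, which is mm10. They span chr8:68866195-68866395, chr8:68852684-68852884 and chr8:68848082-68848282, in that order. Capitals mark an E-box (CACGTG) in the second and 5 copies of an ETS pattern (CCGGAAG on either strand, here reading CTTCCGG) in the third.
Lpl −14260: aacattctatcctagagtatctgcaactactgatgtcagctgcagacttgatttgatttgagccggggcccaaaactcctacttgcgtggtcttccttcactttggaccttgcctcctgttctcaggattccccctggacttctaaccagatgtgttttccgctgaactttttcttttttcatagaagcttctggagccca
Lpl −27771: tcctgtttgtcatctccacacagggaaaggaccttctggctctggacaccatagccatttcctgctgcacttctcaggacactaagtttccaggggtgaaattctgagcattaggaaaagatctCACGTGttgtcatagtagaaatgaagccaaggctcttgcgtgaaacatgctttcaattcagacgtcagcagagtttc
Lpl −32373: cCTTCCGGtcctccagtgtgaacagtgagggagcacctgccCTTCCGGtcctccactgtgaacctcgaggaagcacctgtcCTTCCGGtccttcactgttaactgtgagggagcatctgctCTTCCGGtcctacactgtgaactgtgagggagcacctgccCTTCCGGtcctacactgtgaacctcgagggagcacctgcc
The third sequence is a tandem repeat. Laid on itself after a shift of 40 bp, 86.3% of its bases matched, and the 5 ETS copies started 40 bp apart. It was the 1 window of the 86 with an ETS match (1.16%, beside 5.38% of all summit windows). Reads from such a repeat can match several of its copies, and how the authors handled these reads is not stated in the sources used here.

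Gpihbp1 (gene ID 68453, chr15:75596630-75598213, plus strand), the carrier of Lpl in capillary endothelium, had 3 promoter summits, a number that it alone reached among the 8. They lay 181 bp upstream (2.92), 438 bp downstream in exon 2 (2.80) and 938 bp downstream in exon 3 (3.79). With summits within 500 bp merged, the last 2 count as 1, which leaves 2 promoter summits. The 4 other summits nearest to this gene scored 5.55 at 1790 bp upstream, 1.84 at 3580 bp upstream, 2.42 at 2503 bp downstream and 4.16 at 3844 bp downstream. None of the 7 scored above 5.55, and 2 of them lay inside the gene body of 1584 bp, with the others on both sides of it. The highest score in the Gpihbp1 window, 33.3, belonged to the promoter of the neighbouring zinc finger gene Zfp41. Beside these low scores stand the endothelial markers, of which 4 of 12 had a promoter summit, with highest scores between 2.59 and 14.7. Whether the share of endothelial nuclei plays a part in the Gpihbp1 scores was not tested.

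The summit upstream of the Gpihbp1 TSS is shown because it is the low-scoring promoter site of the lipase carrier, beside the high one of Lpl. It spans chr15:75596349-75596549, has a GC content of 55.7%, and held none of the 15 motifs searched.
Gpihbp1 −181: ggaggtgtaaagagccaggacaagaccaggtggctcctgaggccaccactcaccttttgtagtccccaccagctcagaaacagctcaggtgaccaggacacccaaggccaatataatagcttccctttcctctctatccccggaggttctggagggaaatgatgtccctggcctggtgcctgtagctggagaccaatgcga

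Lmf1 (gene ID 76483, chr17:25579174-25662831, plus strand), the maturation factor of the lipase, had a promoter summit 33 bp downstream of its TSS in exon 1 with a score of 19.4, and a second 677 bp downstream in intron 1 with 6.02. Over the rest of its 83658 bp gene body there were 2 more summits, with scores of 1.80 in intron 6 and 4.92 in intron 10. Both lay in tandem repeats, where 77.8% and 82.0% of bases matched after shifts of 39 and 23 bp. Apart from these, Lmf1 had the 2 summits of its promoter.

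Angptl4 (gene ID 57875, chr17:33774900-33781575, minus strand), the secreted inhibitor of Lpl, had the highest score among all 51 summits nearest to the 8 genes. This was 43.7 for a summit in intron 3, 2138 bp downstream of the TSS, which ranked 758 among all 32173. It exceeded the promoter summits of the gene, 13.4 in coding exon 1 (416 bp downstream) and 9.78 at 621 bp upstream. The other 3 summits nearest to Angptl4 scored 4.61 in exon 6, 3.75 in intron 6 and 4.16 just past the end of the gene. The 10 remaining summits of the window were nearer to Rab11b, Kank3 or Ndufa7, and included the highest score of all 86, 64.4 at the Rab11b promoter.

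The intron 3 and exon 1 summits of Angptl4 are shown as the highest-scoring site and the highest promoter summit of the gene. They span chr17:33779337-33779537 and chr17:33781059-33781259 and are written on the minus strand. The third intron of Angptl4 is known for a response element of the PPAR nuclear receptors. The letters searched for such an element, the direct repeat DR1 (AGGTCAAAGGTCA, up to 2 mismatches, either strand), were not found in this window of 201 bp. Capitals in the exon 1 sequence mark an E-box, CACGTG.
Angptl4 +2138: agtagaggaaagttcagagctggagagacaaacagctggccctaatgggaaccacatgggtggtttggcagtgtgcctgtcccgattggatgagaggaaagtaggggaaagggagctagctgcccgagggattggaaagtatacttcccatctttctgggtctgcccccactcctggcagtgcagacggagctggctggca
Angptl4 +416: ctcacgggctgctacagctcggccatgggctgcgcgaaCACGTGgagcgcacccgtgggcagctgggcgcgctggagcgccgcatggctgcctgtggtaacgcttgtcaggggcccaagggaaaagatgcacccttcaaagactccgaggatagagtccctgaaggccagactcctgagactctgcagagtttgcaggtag

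Vldlr (gene ID 22359, chr19:27216480-27254231, plus strand), the lipoprotein receptor, had 4 summits and no other gene nearer to any of them. A summit 72 bp upstream of its second TSS (464 bp downstream of the first) scored 10.9, and one 994 bp downstream in intron 1 scored 3.75. The highest score, 12.2, lay farther into intron 1 at 1887 bp, and a distal summit 37923 bp upstream had 6.02. Its promoter sequence was the most GC-rich shown, with 80.3% over the 71 bp between the summit and the second TSS (chr19:27216949-27217019). Capitals mark an SP/KLF pattern (GGGCGG on either strand, here CCGCCC). The intron 1 window (chr19:27218807-27219007) follows, with its E-box in capitals.
Vldlr −72: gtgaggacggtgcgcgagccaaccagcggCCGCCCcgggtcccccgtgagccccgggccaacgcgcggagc
Vldlr +1887: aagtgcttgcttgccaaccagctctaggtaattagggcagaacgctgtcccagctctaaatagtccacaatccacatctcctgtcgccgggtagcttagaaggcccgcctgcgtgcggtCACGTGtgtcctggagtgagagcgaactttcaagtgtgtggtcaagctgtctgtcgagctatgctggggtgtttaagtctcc

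Cd36 (gene ID 12491, chr5:17781690-17888959, minus strand), the fatty acid translocase, spread 5 summits over a gene of 107270 bp with 3 TSSs. The third TSS alone had a summit within 1 kb, 55 bp downstream in an untranslated exon with a score of 4.16. From the first TSS the closest summit was 29926 bp away, and from the second 8853 bp away. No summit of the Cd36 locus reached 10. The highest, 7.05 in intron 13 and 49114 bp downstream of the third TSS, lay in a tandem repeat with 75.1% of bases matching after a shift of 12 bp. The others scored 2.18 in intron 8, and 4.16 and 1.54 in intron 1 of the longest mRNA. A sixth summit, upstream of the gene with 5.07, was nearer to Gnat3, the taste G protein gene.

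Cd36 stood apart from the other genes in base composition. The 1 kb around each TSS of a gene, averaged over its TSSs, had a GC content of 37.6% for Cd36 and of 53.7% to 61.1% for the others. In the lowest of 10 nearly equal groups of genes by this value, to which Cd36 belonged, 7 of 2114 genes (0.331%) had a promoter summit. In the group of Lpl and Gpihbp1 the share was 52.0%, in that of Vldlr 60.1%, in that of Angptl4, Lmf1 and Slc27a1 67.0%, and in that of Fabp3 70.9%. Against genes of like GC content, the presence of a promoter summit was therefore common for 7 of the genes and rare for Cd36. The 45 bp upstream of the third Cd36 TSS (chr5:17835897-17835941) and the repeat in intron 13 (chr5:17786682-17786882), both on the minus strand, show this composition and the repeat unit.
Cd36 upstream of the third TSS: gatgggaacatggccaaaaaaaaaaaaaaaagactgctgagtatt
Cd36 +49114: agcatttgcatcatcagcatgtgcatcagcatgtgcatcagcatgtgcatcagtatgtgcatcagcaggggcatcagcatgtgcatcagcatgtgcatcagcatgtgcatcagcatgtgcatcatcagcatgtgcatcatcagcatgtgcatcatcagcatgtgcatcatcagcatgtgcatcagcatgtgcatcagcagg

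**Figure D4:**
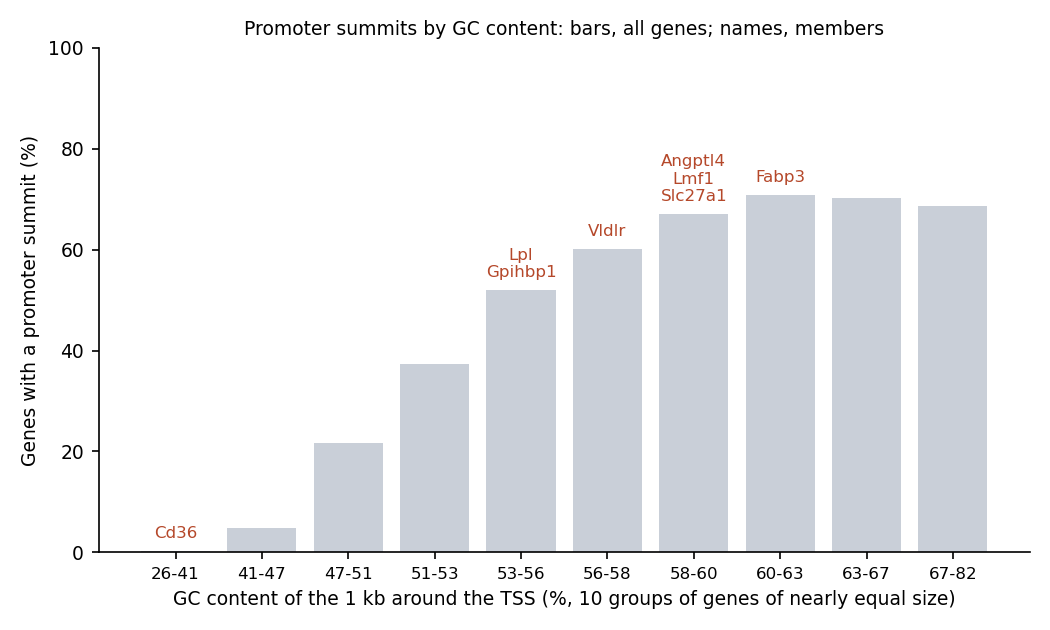
The bars give the share of genes with a promoter summit (y axis, %) in 10 nearly equal groups of genes by GC content of the 1 kb around the TSS (x axis, %). The names mark the groups of the lipid uptake genes. Cd36 falls in the lowest group, where 0.331% of genes had a promoter summit.

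Slc27a1 (gene ID 26457, chr8:71568728-71587307, plus strand), the transport protein FATP1, had 2 summits of its own. The first scored 10.2 and lay 387 bp upstream of the third TSS, a position 610 bp downstream of the second TSS and 1336 bp downstream of the first. The other, 4855 bp downstream in intron 1, scored 3.75 and was a tandem repeat in which 77.5% of bases matched after a shift of 32 bp. In its window the promoters of Colgalt1 (54.7) and Mvb12a (19.4) scored higher than its own, and that of Pgls (9.78) slightly lower. The promoter window of Slc27a1 (chr8:71570107-71570307) held a single SP/KLF pattern, in capitals.
Slc27a1 −387: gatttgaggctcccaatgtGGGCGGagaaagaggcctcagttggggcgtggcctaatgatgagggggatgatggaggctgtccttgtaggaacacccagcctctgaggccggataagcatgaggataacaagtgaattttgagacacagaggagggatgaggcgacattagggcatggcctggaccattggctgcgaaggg

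Fabp3 (gene ID 14077, chr4:130308738-130315463, plus strand), the fatty acid binding protein of oxidative tissues, had all 6 summits nearest to its own TSS. Of these, 3 scored at least 10 and lay within 10 kb of the TSS. They were 18.8 in intron 1 at 135 bp downstream, 15.4 at 1813 bp upstream and 16.2 at 9251 bp upstream. A weaker promoter summit stood at 597 bp upstream (3.32), and 2 downstream summits (2.92 and 8.12) were inside the neighbouring gene Zcchc17. The window 1813 bp upstream (chr4:130306825-130307025) is shown because it was the 1 window of the 86 with the ERR letters (TCAAGGTCA on either strand), the pattern of the estrogen-related receptors that serve oxidative genes, which 0.454% of all summit windows held. The letters lay more than 50 bp from the summit. Capitals also mark 2 C/EBP patterns.
Fabp3 −1813: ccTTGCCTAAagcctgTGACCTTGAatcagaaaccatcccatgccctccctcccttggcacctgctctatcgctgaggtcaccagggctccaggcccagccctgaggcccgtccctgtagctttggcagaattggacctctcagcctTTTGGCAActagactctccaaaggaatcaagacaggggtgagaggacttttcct

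In several lipid uptake genes the highest score was not at the promoter. In 7 genes summits nearest to the gene lay both within and beyond 1 kb of a TSS, and in 5 of these, Lpl, Gpihbp1, Angptl4, Vldlr and Cd36, the highest lay beyond. The same was found for 35.3% of the 4448 genes with both kinds. Genes with more summits beyond 1 kb had more chances of this, and the highest of Cd36 was the repeat in intron 13. In Fabp3 and Slc27a1 the promoter summit was higher.

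The 86 summits had scores like those of the list as a whole. They ran from 1.54 to 64.4 with a median of 4.76, beside 5.001 for all summits, and 20 of them (23.3%) reached 10, beside 23.5%. Within 1 kb of any TSS lay 24 of the 86, or 27.9% (95% Wilson interval 19.5% to 38.2%), beside 32.2% of all summits. The interval treats the 86 summits as independent, although 23 of them lay at Lpl, and it does not measure spread over loci or mice. Of the 24, 14 were at a TSS of the 8 genes and 10 at that of a neighbour. The 14 had a median score of 7.90, and the 37 farther from a TSS but nearest to one of the 8 genes had 4.16. By annotation 39 of the 86 lay between genes (45.3%, beside 42.8% of all), 31 in introns (36.0%, beside 40.6%), 8 in coding exons (9.30%, beside 7.44%) and 8 in untranslated exons (9.30%, beside 9.18%). Scores recurred as exact values, with 46 distinct values among the 86, and 1942 summits of the list, 10 of them at these loci, shared the score of 4.16.

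The windows of 201 bp around the 86 summits had a median GC content of 54.0%, beside 56.2% for all summits. Near a TSS the medians were 57.2% and 62.2%, and the median number of CpGs was 9.5 beside 14. The SP/KLF pattern, which 44.98% of all summit windows within 1 kb of a TSS held, was found in 12 of the 86 windows (14.0%, beside 20.6% of all), 5 of them nearest to Cd36, Lpl, Lmf1, Vldlr or Slc27a1. C/EBP letters (TTGCNNAA) were in 8 windows (9.30%, beside 10.9%), among them those in intron 1 of Lpl and of Lmf1, the distal Vldlr summit and the Fabp3 summit shown above. E-boxes were in 6 windows (6.98%, beside 4.68%), 4 of them nearest to Lpl, Angptl4 or Vldlr. The hypoxia pattern ACGTG, which each E-box contains, was in 13 windows (15.1%, beside 14.0%). A glucocorticoid receptor pattern (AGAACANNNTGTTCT, up to 2 mismatches) was in 3 windows (3.49%, beside 1.18%), all in the Angptl4 window, of which 1, just past the end of Angptl4 and scoring 4.16, was nearest to that gene. With 50 bp on each side of a summit in place of 100 bp, none of the 86 windows held this pattern, and the counts fell to 5 for SP/KLF, 5 for C/EBP, 3 for E-boxes and 6 for ACGTG. For the next 3 patterns these narrower windows gave 2 for MEF2, 1 for AP-1 and 1 for CTCF. A narrower window can only lower such counts. The shares of all summits at this width are not given here, so whether the whole list fell alike is not known. MEF2 letters (CTANNNNTAG) were in 4 windows (4.65%, beside 2.11%), those of AP-1 (TGACTCA) in 2 (2.33%, beside 5.10%) and those of CTCF (CCANNAGNNGGC) in 2 (2.33%, beside 2.54%). None of the 86 windows held the letters of DR1, EBF (TCCCNNGGGA), NFI (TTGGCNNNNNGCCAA, up to 1 mismatch), the cAMP response element (TGACGTCA) or SREBP (TCACNCCAC), which 1.58%, 1.33%, 0.845%, 1.03% and 0.796% of all windows held. A pattern match is a run of letters and not a bound factor, and a missing match says only that these letters were not in the window.

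Among 38 other genes of lipoprotein handling and fatty acid uptake, 23 had a promoter summit, with a median highest score of 8.65 and a median of 5 summits per locus, beside 8 of 8, 12.2 and 8.5 for the genes above. The 23 were 60.5% of this list, beside 45.2% of all genes. The highest scores were those of Acsl1, the acyl-CoA synthetase that traps fatty acids in the cell (90.5, with 40 summits at its locus), the lipoprotein receptor gene Lrp1 (42.0), Fabp4, the fatty acid binding protein of adipocytes (35.0), and Sel1l, which works with Lmf1 on Lpl in the endoplasmic reticulum (31.7). Caveolae genes Cavin1 and Cav1, which shape pits of the adipocyte membrane, had 26.1 and 19.4. The 15 without a promoter summit included the fatty acid binding protein genes Fabp1, Fabp2 and Fabp7, the lipase genes Lipc and Lipg, the apolipoprotein genes Apoe, Apoa5 and Apoc2, and Slc27a3, Slc27a5, Acsl3 and Vegfb. Relatives of these genes had one, among them Slc27a2 (14.7), Apoc3 (10.9) and Apoc1 (5.61).

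Among genes with a promoter summit, those that handle stored lipid had higher median scores than the uptake genes. Of 10 lipolysis and perilipin genes, all but Plin4 had a promoter summit (90%, beside 45.2% of all genes). Those with one had a median score of 29.3, the highest at Lipe, the hormone-sensitive lipase (84.8), and the 10 loci held a median of 23 summits. Of 13 genes of lipogenesis and triglyceride synthesis, all but Acaca, Acacb and Mlxipl had one (76.9%). Those with one had a median score of 17.8, the highest at Dgat1 (65.4), and the 13 loci held a median of 17 summits. These median scores leave out genes without a promoter summit. Counting all genes of each list, a score of at least 10 was reached by 7 of 10 lipolysis genes, 6 of 13 lipogenesis genes and 6 of the 8 uptake genes. Lpl, with 23.1 and 23 summits, stood within the range of these lists, and Cd36 and Gpihbp1, with 4.16 and 3.79, were below the lowest of the lipolysis list, 5.55, and above the lowest of the lipogenesis list, 3.32 at Scd2.

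**Figure D5:**
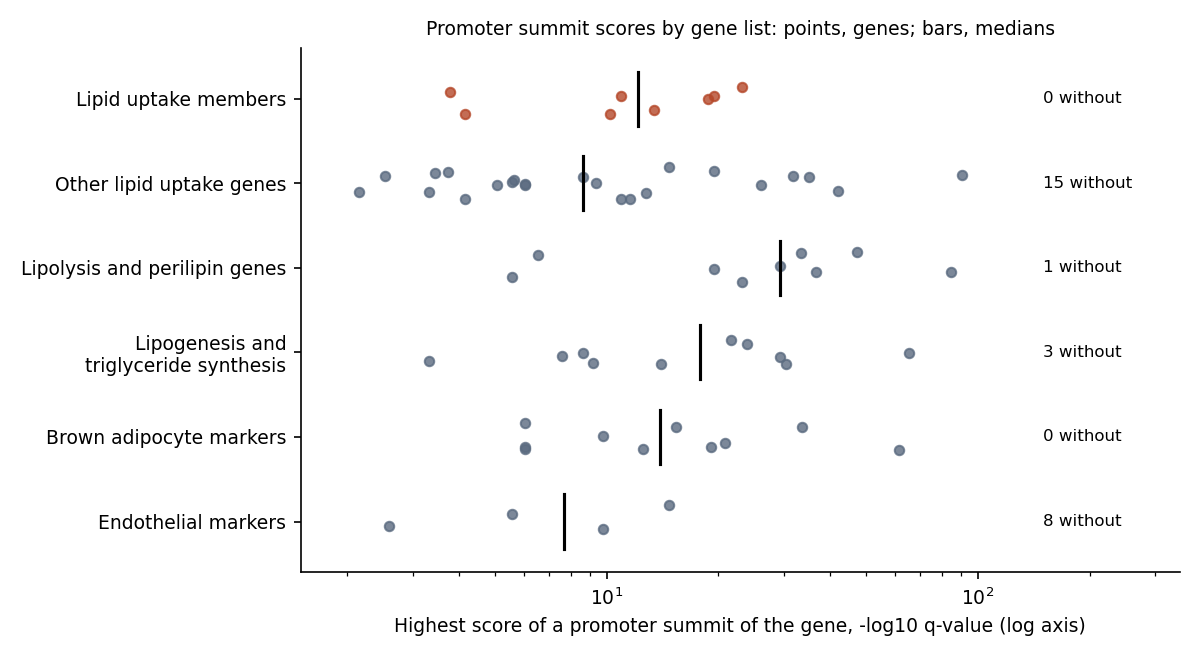
Each point is the highest promoter summit score of 1 gene (x axis, −log10 q-value, log axis), in rows by gene list, with the vertical bar at the median and the number of genes without a promoter summit at the right. The lipid uptake genes have a median of 12.2, the lipolysis and perilipin genes of 29.3.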

How the data were processed

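The authors prepared ATAC-seq libraries from BAT of 4 mice, 2 of each genotype, without pooling. The submitters' processing notes name CASAVA, bcl2fastq 2.2, cutadapt 1.2.1, BWA, MACS2 2.1.1 and the mm10 build. The deposited list gives 1 summit per peak and a −log10 q-value computed by MACS2 (lowest 1.31, or q = 0.0493). It is a single list for the 4 libraries, named as WT against Dot1L-BKO. Peaks were called in the ATAC mode of MACS2 in Partek Flow, with cutoffs on the q-value and on fold enrichment. How this mode placed the transposase cuts and how multi-mapped reads were treated is not given in the sources used here. Depth is unknown, and intervals cover counting error only. RNA-seq libraries were not analysed here.

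Summits were placed relative to curated mRNAs of the RefSeq annotation of GRCm38 on chromosomes 1 to 19, X and Y. The closest TSS decided which gene a summit was nearest to. GC content, repeats and 15 short patterns were read in 201 bp around each summit, on both strands. Self-identity was the highest share of matching bases when a window was shifted on itself by 2 to 60 bp, and 70% marked a tandem repeat. This measure was chosen after the values were seen. UTR bases were left out of the printed sequences.

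The 8 genes and the gene lists were chosen with earlier results of these data known. The genes named were the 8, genes of the other lists that had no promoter summit or the highest score of their list, and neighbours whose TSS was nearest to a summit described. Further genes of the other uptake list, Scd2, Zcchc17, the 4 endothelial markers with a summit and the sequences beyond promoters were picked after their values were seen. Some list genes and sequences are not reported here. No test was made. Alternatives changed the score minimum (2, 5 or 10), merged summits within 500 bp, changed the locus and promoter windows or the transcripts, and took 50 bp on each side for patterns. The counting steps were tested on simulated data. Scripts ran in Python 3.11.15 with pandas 2.3.3, pysam 0.24.0, numpy 2.4.6, matplotlib 3.10.9 and scipy 1.17.1.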

Additional observations from a re-analysis of the deposited data

How the results depend on the processing

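The 8 genes all kept a promoter summit under each promoter window, with NM and XM mRNAs, with merged summits and at a score of at least 2, and 6 kept one at a score of at least 5 or 10, where Cd36 and Gpihbp1 lost theirs. A minimum of 5 left 42 of the 86 summits with a median score of 9.78, and 36.1% of all genes had a promoter summit. A minimum of 10 left 20 summits with a median of 18.8, 50% of them lay within 1 kb of a TSS, and the share of all genes was 23.5%. A minimum lowers the number of summits by construction. A window of 10 kb gave 40 summits and one of 100 kb gave 110, and summits nearest to a TSS of the 8 genes gave 51. The share of all genes with a promoter summit was 41.4% within 500 bp, 50.03% within 5 kb and 35.2% for a promoter of 1 kb before to 100 bp after the TSS. Leaving out the windows of at least 70% self-identity, an alternative chosen after seeing the data, gave 81 summits with a median score of 4.61. With 50 bp on each side, the 3 glucocorticoid receptor and 1 ERR matches were lost. For single genes and patterns, 32 values moved and 47 did not. No paired analysis was possible because each peak carries a single score for the 4 libraries. This also kept any replicate from being left out.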
